A study of Mus musculus with 6 samples.

Results

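The Polycomb complex subunits described here are 36 genes that code for the core and accessory subunits of the Polycomb repressive complexes PRC1 and PRC2. They were taken from the 24467 genes of the deposited count table by matching its Entrez identifiers to a list of known subunits. All 36 were found and all 36 passed the filter on low counts, which kept 14771 genes. The list holds 12 PRC2 genes and 24 PRC1 genes, and 5 of the 36 lie on chromosome 6 (Ezh2, Pcgf1, Rybp, Phc1 and Aebp2). It does not hold every known subunit, so the share of a paralogue is a share of the genes listed.

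Mouse embryonic stem (ES) cells with deleted HP1 alpha (Cbx5) and HP1 beta (Cbx1) were profiled by RNA sequencing against a control clone. The double knockout (DKO) is represented by 2 clones with 2 libraries each, and the control is 1 clone with 2 libraries, titled F/F and given the genotype WT in the labels. All 6 libraries come from cells grown in knockout serum replacement and LIF with 3 µM CHIR99021, which inhibits GSK3, and with the MEK inhibitor PD184352 at 0.8 µM. With 1 control clone, genotype and clone cannot be told apart, and the libraries of a clone are not said to be separate cultures, so p-values measure the spread between libraries, which may be technical.

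Libraries held 24628872 to 27876620 counted reads in DKO and 32327537 to 34641560 in the control. The targeted genes had 191 to 205 CPM in DKO against 809 to 813 CPM in the control for Cbx5, and 43.9 to 49.3 CPM in DKO against 223 to 227 CPM in the control for Cbx1, where CPM is the read count per fixed number of reads in the library, scaled by TMM. Reads outside the deleted exons may be counted. All 8 ES cell markers were detected, with summed levels of 3805 to 3989 CPM in DKO and 3608 to 3732 CPM in the control. Summed levels of 9 fibroblast or feeder markers were 3.07 to 4.56 CPM in DKO and 7.42 to 10.1 CPM in the control, and those of 4 neuroectoderm markers 5.59 to 13.7 CPM in DKO and 12.8 to 14.7 CPM in the control. For 7 primitive endoderm markers they were 4.99 to 6.54 CPM in DKO and 7.07 to 8.83 CPM in the control, for 6 trophectoderm markers 19.6 to 27.7 CPM in DKO and 17.6 to 22.1 CPM in the control, and for 4 mesoderm markers, of which Mesp1 was at 0 in every library, 12.5 to 22.2 CPM in DKO and 10.8 to 11.8 CPM in the control. Eomes is in both the trophectoderm and the mesoderm list, and had 10.6 to 19.9 CPM in DKO and 7.13 to 8.46 CPM in the control. These sums are therefore not independent. The mesoderm marker T went the other way, with 1.22 to 2.06 CPM in DKO and 2.39 to 2.77 CPM in the control. By edgeR (adjusted p under 0.05), 1 of the 6 trophectoderm markers was called higher in DKO (Gata3) and 1 lower. The part of these marker differences in the results below was not tested. Fewer cells of a type and less RNA per cell cannot be told apart in bulk RNA.

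Polycomb complexes keep developmental genes silent by modifying histones. PRC2 methylates histone H3 through EZH2 or EZH1, held by SUZ12 and EED, and PRC1 adds ubiquitin to histone H2A through RING1B or RING1. PRC1 comes in a canonical form, with CBX and PHC proteins that read the PRC2 mark and compact chromatin, and in variant forms, with RYBP or YAF2 and a PCGF protein that sets the other partners. In ES cells both complexes sit at the promoters of genes that are off in pluripotent cells and switched on in differentiation.

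The promoters of the PRC2 core genes Ezh2, Suz12 and Eed are shown because these genes did not move together. Ezh2 was higher in DKO, Suz12 was lower, and Eed was lower in every DKO library but did not pass the test. Ezh2 lies on chromosome 6, and after centring on the median of that chromosome its log2 change was 0.05 (edgeR adjusted p = 0.707). Each run spans 250 bases before to 50 bases after a RefSeq transcription start on GRCm38.p6, read on the gene's own strand, and capitals mark the motifs searched. These were TTCCCGC and TTGGCGC, both bound by E2F factors, and CACGTG, the E-box bound by MYC and MAX dimers, on both strands.
Ezh2: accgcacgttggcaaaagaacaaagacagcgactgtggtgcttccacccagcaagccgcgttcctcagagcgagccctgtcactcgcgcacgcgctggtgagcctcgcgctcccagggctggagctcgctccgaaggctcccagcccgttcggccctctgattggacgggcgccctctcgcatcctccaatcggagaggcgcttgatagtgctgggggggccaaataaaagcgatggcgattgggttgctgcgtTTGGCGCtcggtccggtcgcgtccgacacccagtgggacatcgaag
Suz12: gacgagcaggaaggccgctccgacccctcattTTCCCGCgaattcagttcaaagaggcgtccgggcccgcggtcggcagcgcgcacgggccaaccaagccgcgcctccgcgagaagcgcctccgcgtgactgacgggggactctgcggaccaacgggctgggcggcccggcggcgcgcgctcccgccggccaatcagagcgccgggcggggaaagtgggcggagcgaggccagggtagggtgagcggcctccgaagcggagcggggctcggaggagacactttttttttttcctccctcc
Eed: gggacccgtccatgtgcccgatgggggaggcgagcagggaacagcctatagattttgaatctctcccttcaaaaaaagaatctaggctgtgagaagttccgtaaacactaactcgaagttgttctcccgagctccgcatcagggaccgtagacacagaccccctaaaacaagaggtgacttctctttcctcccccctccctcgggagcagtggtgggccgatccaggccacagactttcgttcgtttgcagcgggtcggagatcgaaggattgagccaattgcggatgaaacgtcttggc
The Ezh2 run is chr6:47594981-47595280 on the minus strand and has 31 CpG and 1 TTGGCGC. The Suz12 run is chr11:79992856-79993155 on the plus strand and has 41 CpG and 1 TTCCCGC. The Eed run, chr7:89980927-89981226 on the minus strand, has 17 CpG and none of the motifs. Neither printed match overlaps another. The median over all 32851 promoters in the table was 7 CpG. TTCCCGC was found in 4.60%, TTGGCGC in 2.45% and CACGTG in 7.15% of those promoters. In the 44 listed promoters of 31 members, the counts were 4, 3 and 8 in the same order. These matches describe letters only, and no binding was measured.

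Per length of gene, the members covered a wide range, and most families were led by 1 paralogue. Levels between genes are given as RPKM, the CPM divided by the deposited gene width in kilobases, as mean ± SD over 4 DKO and 2 control libraries. The WD40 proteins RBBP7 and EED had the highest levels: Rbbp7 had 119 ± 2.71 RPKM in DKO and 122 ± 2.45 RPKM in the control, and Eed had 102 ± 1.37 RPKM in DKO and 111 ± 0.143 RPKM in the control. The lowest was Cbx8, with 0.277 ± 0.103 RPKM in DKO and 0.216 ± 0.0425 RPKM in the control and as few as 17 reads in a library. Cbx8 codes for a chromodomain subunit of canonical PRC1.

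Within families, Ezh2 made up 92.0 to 92.3% in DKO and 89.6 to 89.7% in the control of the summed RPKM of Ezh1 and Ezh2. Ezh2 lies on chromosome 6, where the median log2 change of all tested genes was 0.48. Its share carries that shift, as does that of Phc1 below. Mtf2, whose product brings PRC2 to CpG islands, made up 97.1 to 97.8% in DKO and 97.2 to 97.7% in the control of the PCL genes (Mtf2, Phf1 and Phf19). For the RING ligases, Rnf2 (RING1B) made up 96.2 to 97.1% in DKO and 95.8 to 96.1% in the control. The CBX and PHC families had the same leading gene in every library. Cbx7 made up 65.6 to 69.7% in DKO and 67.4 to 69.4% in the control of the 4 CBX genes listed, and Phc1 made up 94.6 to 96.0% in DKO and 94.7 to 95.6% in the control of the PHC genes. Among the 6 PCGF genes the leading one was Pcgf6, the subunit of the E2F6 and MGA form of PRC1, with 47.2 to 52.2% in DKO and 45.9 to 50.3% in the control.

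**Figure D1:**
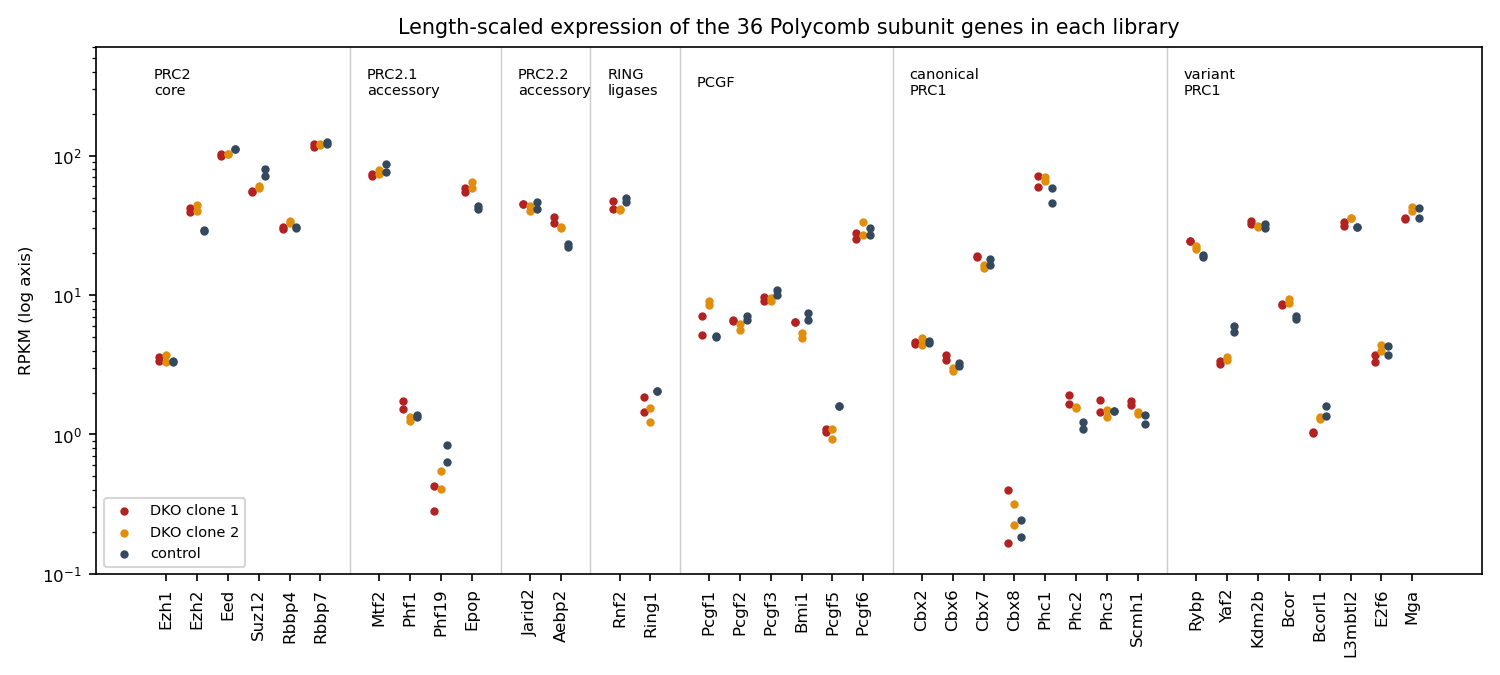
RPKM (log axis) of the 36 Polycomb subunit genes in each library, grouped by complex, with 1 point per library of DKO clone 1, DKO clone 2 and the control. Ezh2, Mtf2, Rnf2, Pcgf6, Cbx7 and Phc1 stand above their paralogues in all 6 libraries, and Suz12 and Yaf2 are lower and Ezh2 higher in all 4 DKO libraries than in the control ones.

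Of the 36 members, 6 rose in DKO (Ezh2, Epop, Aebp2, Phc2, Rybp and Bcor), 3 fell (Suz12, Pcgf5 and Yaf2) and 27 did not pass the test (edgeR quasi-likelihood F test, two-sided, Benjamini-Hochberg adjusted p under 0.05 over all tested genes). The 6 are 16.7% of the members, against 5.06% of all tested genes called higher, and the 3 are 8.33%, against 3.62% called lower. The median log2 change was 0.00 over the members and 0.00 over all tested genes. Both complexes had calls in each direction: 3 higher and 1 lower of 12 PRC2 genes, and 3 higher and 2 lower of 24 PRC1 genes.

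The 4 DKO libraries lay wholly above both control libraries for 10 members and wholly below them for 9, while 17 overlapped. These counts are 27.8% and 25.0% of the members, against 16.9% of all tested genes in each direction. The 10 higher members include all 5 of chromosome 6. Of the 31 members on other chromosomes, 5 were higher and 9 lower without overlap. Among the 27 members not called, log2 changes ran from -0.82 (Phf19) to 0.56 (Pcgf1). For 21 of the 27 the 95% interval lay within a 1.5-fold change either way. It contained 0 for 18 of the 27 and lay off 0 for 9. When the counts of each clone were summed, which leaves 2 DKO values against 1 control value, no member was called, with edgeR adjusted p of 0.215 to 0.464 for the 9.

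**Figure D2:**
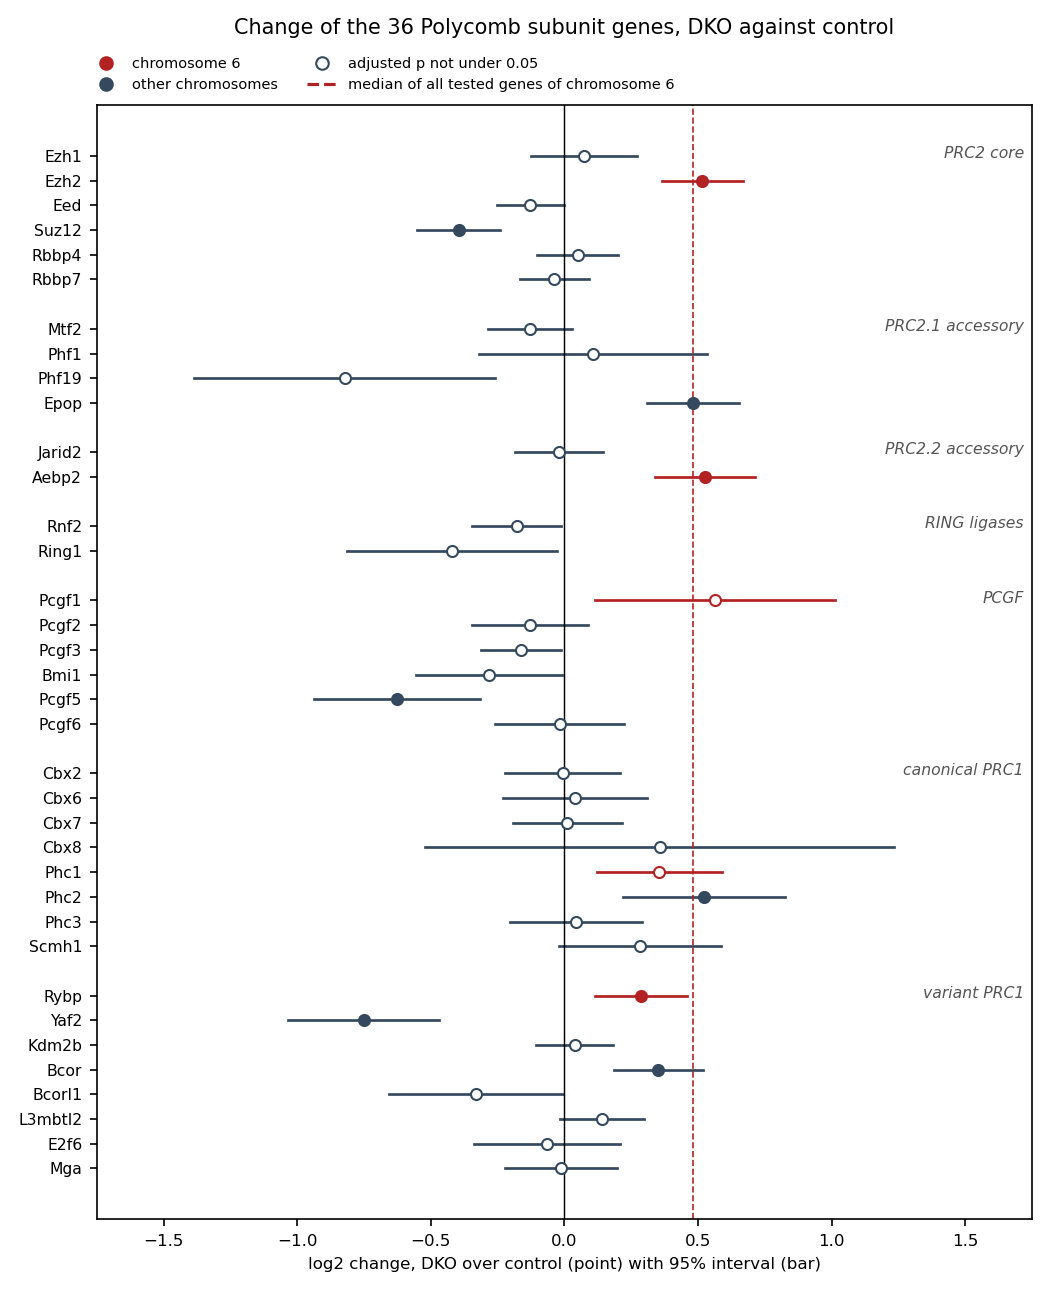
Log2 change in DKO against control for the 36 Polycomb subunit genes (x axis), grouped by complex, with 95% intervals; filled points passed the edgeR test and red marks members on chromosome 6. The 5 red members all lie above 0, from 0.29 to 0.56, and the filled points below 0 are Suz12, Pcgf5 and Yaf2.

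In the PRC2 core, the catalytic gene Ezh2 rose, the scaffold gene Suz12 fell and 4 genes did not pass. Ezh2 (chr6:47530274-47595270), the main H3 methyltransferase of dividing cells, had 281 and 261 CPM in clone 1, 295 and 269 CPM in clone 2, and 195 and 191 CPM in the control clone. Its DKO and control libraries did not overlap, and it rose by a log2 change of 0.52 (SE 0.0682, edgeR adjusted p = 0.00164). Its call stood whichever single library was left out, but Ezh2 lies on chromosome 6, where the median log2 change of all tested genes was 0.48, and after centring on that median it had 0.05 (adjusted p = 0.707).

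Suz12 (chr11:79993106-80034123), the scaffold that joins the catalytic part to the accessory subunits, had 276 and 270.5 CPM in clone 1, 291 and 299 CPM in clone 2, and 396 and 351 CPM in the control clone. All 4 DKO libraries were below both control ones. It fell, with a log2 change of -0.40 (SE 0.0702, edgeR adjusted p = 0.00652), a call that ended without control replicate 1 (adjusted p = 0.135) and held without control replicate 2 (0.0319). Exons of a gene on the opposite strand overlap those of Suz12 by 178 bases, those of Ezh2 by 174 and those of Eed by 261, and the counted strand is not given in the sources used here.

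Eed (chr7:89954654-89980976), the subunit that reads methylated H3, had 382 and 392 CPM in clone 1, 391 and 394 CPM in clone 2, and 425 and 426 CPM in the control clone. The DKO libraries were lower without overlap, but Eed did not pass the test, with a log2 change of -0.13 (SE 0.0563, edgeR adjusted p = 0.207). Set against each other within a library, the RPKM of Ezh2 over that of Suz12 was 0.665 to 0.754 in DKO and 0.365 to 0.403 in the control. Ezh2 over Eed was 0.382 to 0.433 in DKO and 0.257 to 0.263 in the control, and Suz12 over Eed was 0.534 to 0.587 in DKO and 0.639 to 0.721 in the control. None of these ratios overlapped between DKO and control libraries. For the ratios with Ezh2 this follows from the values above, as Ezh2 was higher and Suz12 and Eed were lower without overlap. Those ratios also carry the shift of chromosome 6, after centring of which Ezh2 had a log2 change of 0.05.

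The other core genes did not pass. Ezh1, the alternative methyltransferase, had 24.8 to 27.6 CPM in DKO and 24.7 to 24.9 CPM in the control. The histone chaperone genes Rbbp4 and Rbbp7, whose products also serve other complexes, had 259 to 295 CPM in DKO and 266 to 269 CPM in the control, and 335 to 352 CPM in DKO and 351 to 361 CPM in the control, in that order. The 95% intervals were -0.12 to 0.27 for the log2 change of Ezh1, -0.10 to 0.20 for Rbbp4 and -0.17 to 0.09 for Rbbp7.

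Among the accessory genes of PRC2, 1 of 4 in the PRC2.1 form and 1 of 2 in the PRC2.2 form rose. Epop (chr11:97627387-97629716), which links PRC2.1 to elongin BC, had 126 and 136 CPM in clone 1, 136 and 149 CPM in clone 2, and 95.8 and 100.3 CPM in the control clone. Every DKO library was above the control ones. Epop rose by a log2 change of 0.48 (SE 0.0777, edgeR adjusted p = 0.00406), a call that ended without control replicate 1 (adjusted p = 0.0790) and narrowly without control replicate 2 (0.0510). Mtf2, in the same form, had 418 and 407 CPM in clone 1, 419.6 and 450.2 CPM in clone 2, and 492 and 435 CPM in the control clone, with libraries that overlapped and a log2 change of -0.13 (95% interval -0.29 to 0.03). The RPKM of Epop over that of Mtf2 was 0.743 to 0.825 in DKO and 0.479 to 0.568 in the control.

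The low PCL genes differed in precision. Phf19 had 1.44 and 2.16 CPM in clone 1, 2.05 and 2.74 CPM in clone 2, and 3.20 and 4.21 CPM in the control clone, from as few as 40 reads in a library, and its log2 change of -0.82 (SE 0.254, edgeR adjusted p = 0.0746) did not pass in DKO as a whole, whereas with no filter on low counts it passed (adjusted p = 0.0458). Phf1 had 3.05 to 4.20 CPM in DKO and 3.25 to 3.35 CPM in the control, with a log2 change of 0.11 (95% interval -0.32 to 0.53). Exons of Cuta on the opposite strand overlap 1370 bases of Phf1.

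In PRC2.2, Aebp2 (chr6:140622454-140678472), a zinc finger subunit that stabilises PRC2, had 281 and 311 CPM in clone 1, 264 and 257 CPM in clone 2, and 199 and 187 CPM in the control clone. Its groups did not overlap, and it rose by a log2 change of 0.53 (SE 0.0843, edgeR adjusted p = 0.00389). The call ended without control replicate 1 (adjusted p = 0.0561) or control replicate 2 (0.0752), and after centring of chromosome 6, where Aebp2 also lies (0.751). Jarid2, whose product joins the same form and binds ubiquitinated H2A, had 437 and 435 CPM in clone 1, 421 and 389 CPM in clone 2, and 401 and 452 CPM in the control clone, which overlapped, with a log2 change of -0.02 (95% interval -0.19 to 0.14). The RPKM of Aebp2 over that of Jarid2 was 0.710 to 0.810 in DKO and 0.469 to 0.562 in the control, a ratio that also carries the shift of chromosome 6.

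**Figure D3:**
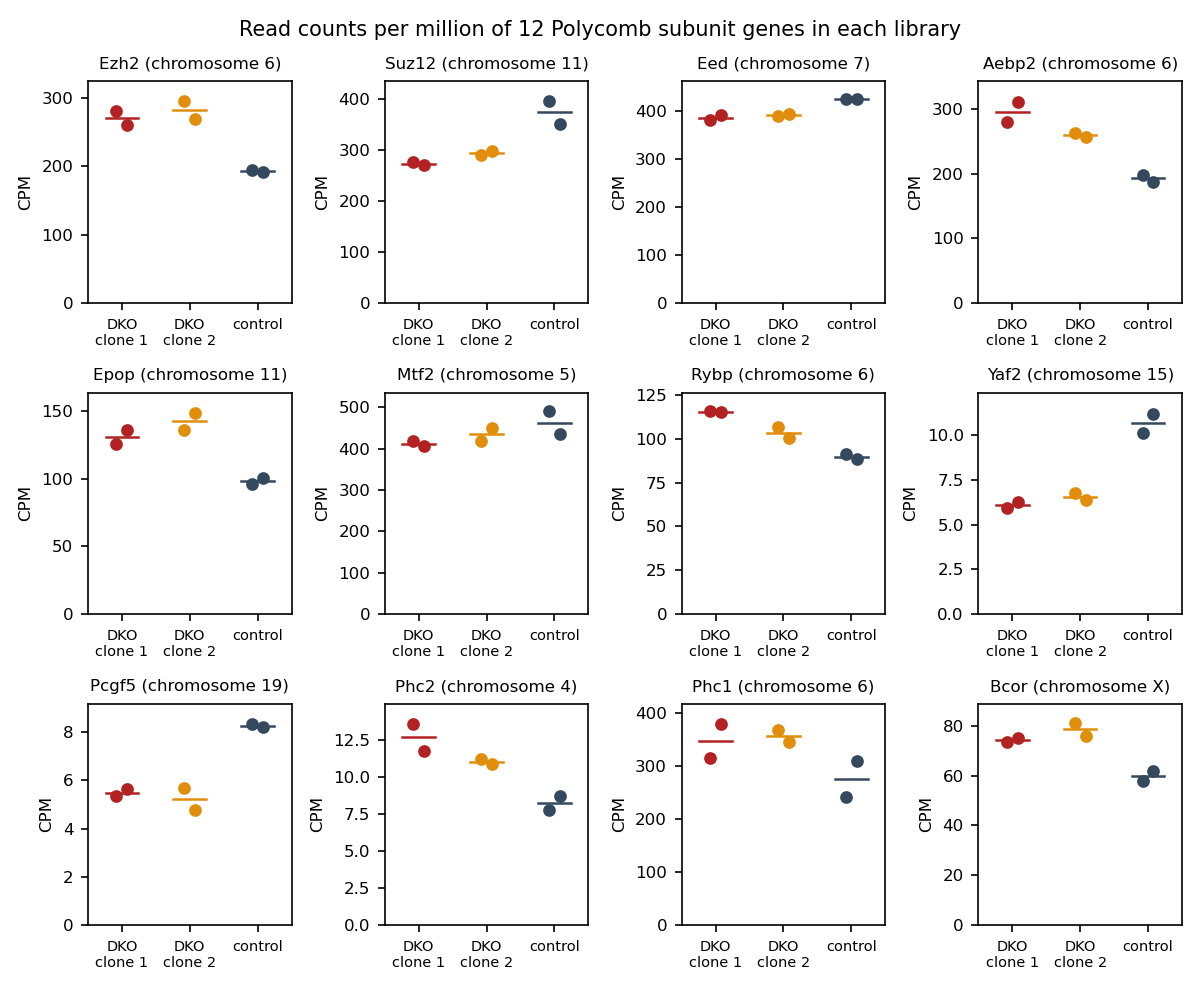
CPM of 12 Polycomb subunit genes in each library of DKO clone 1, DKO clone 2 and the control (1 panel per gene, y axis from 0, points are libraries and bars are group means). Ezh2, Aebp2, Epop, Rybp, Phc1, Phc2 and Bcor are higher and Suz12, Eed, Yaf2 and Pcgf5 lower in all 4 DKO libraries, and the Mtf2 libraries overlap.

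Neither RING ligase gene passed in DKO as a whole. Rnf2, the main H2A ubiquitin ligase of ES cells, had 171 and 194 CPM in clone 1, 167 and 171 CPM in clone 2, and 192 and 206 CPM in the control clone. The second clone 1 library overlapped the control, and the log2 change was -0.18 (95% interval -0.35 to -0.01). Ring1, its paralogue, was low, with 4.70 and 6.07 CPM in clone 1, 5.02 and 3.97 CPM in clone 2, and 6.61 and 6.63 CPM in the control clone. Its DKO libraries were all below the control ones, but the log2 change of -0.42 (95% interval -0.81 to -0.03) did not pass (edgeR adjusted p = 0.185).

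Of the 6 PCGF genes, 1 fell and none rose in DKO as a whole. Pcgf5 (chr19:36348329-36460970), a subunit of the variant complex that spreads H2A ubiquitin broadly, had 5.35 and 5.64 CPM in clone 1, 5.66 and 4.76 CPM in clone 2, and 8.33 and 8.21 CPM in the control clone. The groups did not overlap, and Pcgf5 fell by 0.63 on the log2 scale (SE 0.140, edgeR adjusted p = 0.0203). It is a low gene, at 1.04 ± 0.0811 RPKM in DKO and 1.60 ± 0.0160 RPKM in the control, and its call ended without control replicate 1 (adjusted p = 0.160) or 2 (0.144). Pcgf3, its close paralogue with the same role, was higher in level, with 86.5 and 91.6 CPM in clone 1, 86.9 and 90.2 CPM in clone 2, and 95.5 and 103 CPM in the control clone, and its log2 change of -0.16 (95% interval -0.31 to -0.01) did not pass.

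Pcgf1 (chr6:83077552-83080855), which defines the KDM2B form of PRC1, had 8.54 and 11.6 CPM in clone 1, 14.0 and 14.9 CPM in clone 2, and 8.27 and 8.33 CPM in the control clone. The second clone 1 library and both clone 2 libraries stood well above the control and the first clone 1 library barely so, and the log2 change was 0.56 (SE 0.202, edgeR adjusted p = 0.122). By DESeq2 it passed (adjusted p = 0.0472). Bmi1 and Pcgf2, the PCGF subunits of canonical PRC1, had 25.5 and 25.6 CPM in clone 1, 19.6 and 21.4 CPM in clone 2, and 26.5 and 29.6 CPM in the control clone for Bmi1 and 19.9 to 23.4 CPM in DKO and 23.4 to 24.8 CPM in the control for Pcgf2. The log2 changes were -0.28 (95% interval -0.55 to -0.01) and -0.13 (95% interval -0.35 to 0.09). Pcgf6, the most abundant of the 6, had 52.9 to 69.8 CPM in DKO and 56.9 to 63.4 CPM in the control, with a log2 change of -0.02 (95% interval -0.26 to 0.22).

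In canonical PRC1, 1 of 8 genes rose and none fell, where 5.06% of all tested genes were called higher and 3.62% lower. The median log2 change of the 8 was 0.16 in DKO, 0.25 in clone 1 and 0.08 in clone 2. After each chromosome was centred it was 0.05 in DKO, and none of the 8 was called. Phc2 (chr4:128654655-128752881), a polyhomeotic protein whose SAM domain polymerises, had 13.5 and 11.7 CPM in clone 1, 11.2 and 10.9 CPM in clone 2, and 7.77 and 8.70 CPM in the control clone. All DKO libraries were above the control, and Phc2 rose by a log2 change of 0.52 (SE 0.137, edgeR adjusted p = 0.0402). The call was thin: without control replicate 1 or 2 the adjusted p was 0.291 and 0.151, without clone 1 replicate 1 or 2 it was 0.0714 and 0.0660, and without clone 2 replicate 1 it was 0.0559. It also missed the threshold after each chromosome was centred (0.0509). Phc2 was 2.18 to 3.05% of the PHC RPKM in DKO and 2.01 to 2.28% in the control.

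Phc1 (chr6:122317731-122340227), the abundant PHC gene, had 315 and 381 CPM in clone 1, 369 and 347 CPM in clone 2, and 242 and 309.9 CPM in the control clone. Its lowest DKO library was just above its highest control library, and the log2 change of 0.36 (SE 0.105, edgeR adjusted p = 0.0658) did not pass, whereas by DESeq2 it passed (adjusted p = 0.0172). Phc3 had 23.5 to 30.7 CPM in DKO and 25.7 CPM in both control libraries, and Scmh1, a further SAM domain partner, had 10.8 to 13.5 CPM in DKO and 9.23 to 10.6 CPM in the control. Their log2 changes were 0.04 (95% interval -0.20 to 0.29) and 0.28 (95% interval -0.02 to 0.58), and neither passed.

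The CBX genes, which code for the readers of methylated H3, did not pass. Cbx7, the leading one in ES cells, had 123 and 122 CPM in clone 1, 102 and 106 CPM in clone 2, and 118 and 107 CPM in the control clone. Both clone 1 libraries were above the control and both clone 2 libraries below it, and the log2 change was 0.01 (95% interval -0.19 to 0.21). Cbx2 had 18.6 to 21.0 CPM in DKO and 19.2 to 20.0 CPM in the control, and Cbx6 had 16.6 to 21.5 CPM in DKO and 18.0 to 18.9 CPM in the control, with log2 changes of -0.01 (95% interval -0.22 to 0.21) and 0.04 (95% interval -0.23 to 0.31). Cbx8, at 0.611 to 1.47 CPM in DKO and 0.681 to 0.902 CPM in the control, had an interval too wide to place it, 0.36 (95% interval -0.52 to 1.23).

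In variant PRC1, 2 of 8 genes rose and 1 fell, and of the paired subunits Rybp rose and Yaf2 fell, although the sign of Rybp turned when its chromosome 6 was centred (-0.18, edgeR adjusted p = 0.278). Yaf2 (chr15:93283833-93336935), the paralogue of Rybp that fills the same place, had 5.96 and 6.29 CPM in clone 1, 6.74 and 6.37 CPM in clone 2, and 10.1 and 11.2 CPM in the control clone. The 4 DKO libraries were all below the control, and Yaf2 fell by 0.75 on the log2 scale (SE 0.128, edgeR adjusted p = 0.00527). Without control replicate 1 or 2 the adjusted p was 0.0538 and 0.0894.

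Rybp (chr6:100228565-100287358), which takes the place of a CBX protein on RING1B and reads ubiquitinated H2A, had 116 and 115 CPM in clone 1, 107 and 101 CPM in clone 2, and 91.2 and 88.4 CPM in the control clone. It was higher in every DKO library and rose by a log2 change of 0.29 (SE 0.0773, edgeR adjusted p = 0.0455), the smallest of the 9 called. The call ended without control replicate 1 or 2 (adjusted p = 0.205 and 0.269), without clone 1 replicate 1 or 2 (0.0807 and 0.0925) and without clone 2 replicate 1 (0.0710). Yaf2 made up 11.5 to 13.8% in DKO and 21.9 to 24.3% in the control of the summed RPKM of the pair, so Rybp led in every library. That share also carries the shift of chromosome 6, where Rybp lies. After centring, Rybp had a log2 change of -0.18 and Yaf2 one of -0.73.

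Bcor (chrX:12036737-12160516), a corepressor of the PCGF1 complex, had 73.4 and 75.0 CPM in clone 1, 81.2 and 76.0 CPM in clone 2, and 58.0 and 61.8 CPM in the control clone. No DKO library overlapped the control, and Bcor rose by a log2 change of 0.35 (SE 0.0752, edgeR adjusted p = 0.0168), a call that ended without control replicate 1 (adjusted p = 0.174) or 2 (0.0859). Its paralogue Bcorl1 had 8.79 and 8.91 CPM in clone 1, 11.4 and 10.9 CPM in clone 2, and 11.5 and 13.6 CPM in the control clone, all DKO libraries below the control, with a log2 change of -0.33 (SE 0.147, edgeR adjusted p = 0.209) that did not pass. Bcorl1 was 10.8 to 12.7% in DKO and 16.8 to 18.3% in the control of the summed RPKM of Bcor and Bcorl1. Kdm2b, the CpG island reader of the same complex, had 344 to 380.0 CPM in DKO and 337 to 359 CPM in the control, with a log2 change of 0.04 (95% interval -0.11 to 0.18).

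The subunits of the PCGF6 complex did not pass in DKO as a whole. L3mbtl2, a chromatin compacting subunit, had 197 and 186 CPM in clone 1, 210.4 and 213 CPM in clone 2, and 183 and 183 CPM in the control clone, all DKO libraries above the control, with a log2 change of 0.14 (95% interval -0.02 to 0.30). Mga and E2f6, its DNA-binding subunits, had 538 to 657 CPM in DKO and 549 to 641 CPM in the control, and 18.7 to 24.8 CPM in DKO and 21.1 to 24.4 CPM in the control, in that order. Their log2 changes were -0.01 (95% interval -0.22 to 0.20) and -0.07 (95% interval -0.34 to 0.21). Exons of Chadl on the opposite strand overlap 1023 bases of L3mbtl2.

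The members of chromosome 6 were higher in DKO, as were most tested genes of their chromosome. Genes of chromosome 6 were higher in DKO as a block: the median log2 change of its 709 tested genes was 0.48, and 49.1% of them were called higher. Its 5 members were all higher without overlap, where 66.4% of the tested genes of the chromosome were, and 3 of the 5 passed the test. Their median log2 change was 0.52, against -0.02 for the 31 members of other chromosomes. In clone 1 the median was 0.36 for the 5 members and 0.44 for the chromosome, and in clone 2 it was 0.43 and 0.51. The test called 3 of the 5 higher in clone 1 and 4 in clone 2, against 52.6% and 57.7% of the genes of the chromosome.

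When each chromosome was centred on its own median in every library, the change of Ezh2 was 0.05 (edgeR adjusted p = 0.707), that of Aebp2 0.06 (0.751) and that of Rybp -0.18 (0.278). Pcgf1 was at 0.09 and Phc1 at -0.11. So none of the 5 was called relative to its chromosome in DKO as a whole, and the sign of Rybp and Phc1 turned. Centring left the calls of Epop (0.53), Suz12 (-0.34), Pcgf5 (-0.62), Yaf2 (-0.73) and Bcor (0.40), all on other chromosomes. Phc2, on chromosome 4, kept its change of 0.52.

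After centring, 2 members were called higher and 3 lower, against 2.27% and 3.00% of all tested genes. In clone 1 they were 3 higher and 4 lower (5.04% and 5.33% of all tested genes), and in clone 2 they were 3 higher and 5 lower (5.21% and 6.03%). The members of other chromosomes had 3 higher and 3 lower of 31 before centring, against 2.84% and 3.74% of the tested genes of those chromosomes. Chromosome 3 was also shifted, with a median of 0.18 over 701 genes, and its 1 member Phc3 was at -0.13 after centring. In the PRC2 core, Suz12 was then the 1 gene called and Ezh2 differed little from its chromosome. A change of the chromosome and a change of the gene itself cannot be told apart for the 5 members from these counts.

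**Figure D4:**
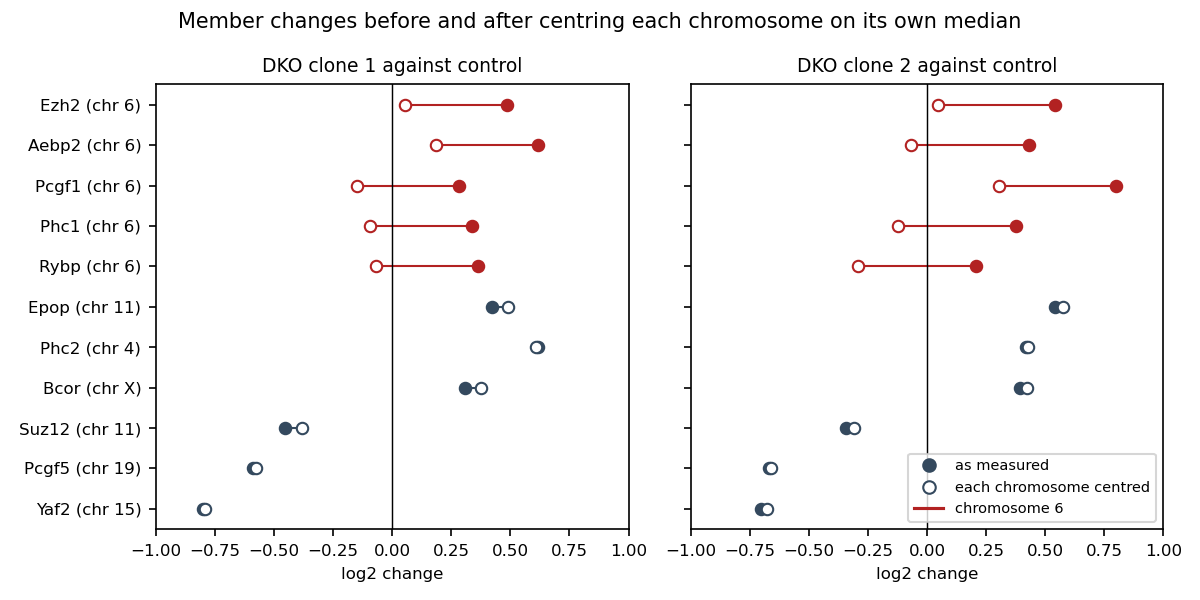
Log2 change of 11 Polycomb subunit genes in clone 1 (left) and clone 2 (right) against control, before and after each chromosome was centred on its own median; red marks members on chromosome 6. The members of chromosome 6 move towards or past 0 (Ezh2 in DKO as a whole has 0.52 before and 0.05 after), and Suz12, Yaf2 and Epop keep their sign.

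Each clone was also set against the control alone. In clone 1, 6 members rose and 5 fell, against 8.79% and 6.47% of all tested genes, and in clone 2, 7 rose and 5 fell, against 7.89% and 7.08%. Both contrasts use the same control libraries. Ezh2, Epop, Aebp2 and Bcor rose, and Suz12, Pcgf5 and Yaf2 fell, in each clone and in DKO as a whole. Over all of these comparisons 16 members were called at least once and 20 never.

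Side by side, the log2 change of Ezh2 was 0.49 (SE 0.0707, adjusted p = 4.58e-04) in clone 1 and 0.54 (SE 0.0708, adjusted p = 1.93e-04) in clone 2 by edgeR. For Suz12 it was -0.45 (SE 0.0707, adjusted p = 7.69e-04) in clone 1 and -0.34 (SE 0.0706, adjusted p = 0.00517) in clone 2 by edgeR. Aebp2 had 0.62 and 0.43, Epop 0.42 and 0.54, and Bcor 0.31 and 0.39. Yaf2 had -0.80 and -0.70, and Pcgf5 -0.59 and -0.67, always clone 1 first. Of these, the calls of Ezh2, Epop and Aebp2 stood in both clones whichever single library was left out. Centring of each chromosome ended those of Ezh2 (adjusted p = 0.665 in clone 1 and 0.736 in clone 2) and Aebp2 (0.121 in clone 1 and 0.599 in clone 2, where its sign turned), and left that of Epop. The call of Suz12 in clone 2 ended without control replicate 1 (adjusted p = 0.0703) or clone 2 replicate 1 (0.0625). That of Bcor in clone 1 ended without control replicate 1 (0.0859), clone 1 replicate 1 (0.0563) or clone 1 replicate 2 (0.0693), and that of Yaf2 in clone 2 without clone 2 replicate 2 (0.0510). That of Pcgf5 ended in clone 1 without any 1 of the control or clone 1 libraries (0.0610 to 0.114), and in clone 2 without control replicate 1 or 2 or clone 2 replicate 2 (0.0510 to 0.121).

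Against the control, 4 members passed in clone 1 but not in clone 2. Phf19 fell in clone 1 by a log2 change of -1.04 (SE 0.267, adjusted p = 0.0179) by edgeR and had -0.63 (SE 0.260, adjusted p = 0.129) in clone 2. Bcorl1 fell in clone 1, with -0.51 (SE 0.134, adjusted p = 0.0216) by edgeR, and had -0.17 (SE 0.133, adjusted p = 0.432) in clone 2. Phc2 and Rybp rose in clone 1, by 0.62 and 0.36, and had 0.42 and 0.21 in clone 2 (edgeR adjusted p = 0.0571 and 0.0611). After centring, the call of Rybp in clone 1 ended and its sign turned (-0.067, adjusted p = 0.578), and in clone 2 Rybp was called lower (-0.29, adjusted p = 0.0145). The call of Bcorl1 in clone 1 also ended after centring (-0.44, adjusted p = 0.0549). Without clone 1 replicate 1 the adjusted p in clone 1 was 0.158 for Phf19, 0.0970 for Bcorl1 and 0.0730 for Phc2. Without control replicate 2 it was 0.136 for Phf19 and 0.155 for Bcorl1, without control replicate 1 it was 0.0715 for Phc2, and without clone 1 replicate 2 it was 0.0682 for Bcorl1.

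In clone 2 but not clone 1, 5 members passed. Pcgf1 rose by 0.80 (SE 0.152, adjusted p = 0.00285) by edgeR, and had 0.28 (SE 0.154, adjusted p = 0.252) in clone 1. Phc1 rose by 0.38 (SE 0.108, adjusted p = 0.0338) and L3mbtl2 by 0.21 (SE 0.0645, adjusted p = 0.0442) by edgeR, with 0.34 and 0.07 in clone 1. Bmi1 fell, with -0.45 (SE 0.100, adjusted p = 0.00825), and so did Rnf2, with -0.24 (SE 0.0744, adjusted p = 0.0487), by edgeR, against -0.13 and -0.12 in clone 1. The call of Pcgf1 stood whichever single library was left out, and ended after centring (adjusted p = 0.228), as did those of Rnf2 (0.110) and Phc1 (0.516, with its sign turned). Those of Rnf2 and L3mbtl2 ended without any 1 of the control or clone 2 libraries (adjusted p = 0.0688 to 0.242 and 0.131 to 0.205). That of Phc1 ended without control replicate 1 (0.266), clone 2 replicate 1 (0.183) or clone 2 replicate 2 (0.0852), and that of Bmi1 without control replicate 2 (0.0681) or clone 2 replicate 1 (0.0899).

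The test of the difference itself, clone 2 against clone 1, called no member in edgeR, against 2.53% of all tested genes higher and 3.77% lower in clone 2. DESeq2 and limma-voom also called 0. At an unadjusted edgeR p under 0.05, 6 of the 36 members were higher and 5 lower in clone 2. The same cut held 1413 higher and 1626 lower of the 14771 tested genes. The closest were Pcgf1, with 14.0 and 14.9 CPM in clone 2 and 8.54 and 11.6 CPM in clone 1, and Cbx7, with 102 and 106 CPM in clone 2 and 123 and 122 CPM in clone 1. Their log2 differences were 0.52 (SE 0.151, adjusted p = 0.0619) and -0.24 (SE 0.0713, adjusted p = 0.0703) by edgeR. Bmi1 followed, with -0.32 (SE 0.101, adjusted p = 0.0858) by edgeR. A member called in 1 clone alone is therefore not shown to differ between the clones. Pcgf1 did pass without clone 1 replicate 2 (adjusted p = 0.0226).

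Other genes of the pathway were read from lists that hold no member. Of 23 further partners of PRC1 and PRC2 tested, 1 rose and 1 fell in DKO, against 5.06% and 3.62% of all tested genes. Their median log2 change was -0.01. In clone 1, 1 rose and 3 fell (Scml2, Lcor and Sfmbt1), against 8.79% and 6.47%. Of those 3, only Lcor was still called after centring (edgeR adjusted p = 0.0480). In clone 2, 1 rose and 1 fell, against 7.89% and 7.08%. Fbrs was lower in clone 2 than in clone 1 (adjusted p = 0.0451). Cbx3, which codes for HP1 gamma and takes part in the PCGF6 complex, lies on chromosome 6 and had 455 and 453 CPM in clone 1, 490.5 and 449.9 CPM in clone 2, and 321 and 344 CPM in the control clone, with a log2 change of 0.48 (SE 0.0665, edgeR adjusted p = 0.00210). That call ended without control replicate 1 (adjusted p = 0.0592) and was 0.01 after centring. Sfmbt2, a relative of the fly Polycomb group protein Sfmbt, had 52.4 and 55.0 CPM in clone 1, 47.0 and 48.3 CPM in clone 2, and 59.2 and 73.0 CPM in the control clone. It fell, with a log2 change of -0.38 (SE 0.101, edgeR adjusted p = 0.0427). The call held without clone 1 replicate 2 and ended without any other library (adjusted p = 0.0560 to 0.404), and after centring (0.0538).

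Of 11 opposing enzymes, among them the H3 demethylase genes Kdm6a and Kdm6b and the H2A deubiquitinase gene Bap1, none was called in DKO by edgeR, and 1 was higher and 0 lower at an unadjusted p under 0.05. Kdm6a had 101 to 107 CPM in DKO and 111 to 112 CPM in the control, and Bap1 had 69.7 to 78.8 CPM in DKO and 71.4 to 72.2 CPM in the control. The median log2 change of the 11 was -0.07.

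Of 70 developmental genes that carry Polycomb marks in ES cells, 27 passed the filter on low counts. Among the 27, 1 rose and 2 fell in DKO, against 5.06% and 3.62% of all tested genes. The median log2 change was -0.03. Gata3, a trophoblast factor that is also among the trophectoderm markers above, had 2.87 and 3.63 CPM in clone 1, 2.61 and 1.69 CPM in clone 2, and 0.786 and 1.24 CPM in the control clone, and rose by a log2 change of 1.42 (SE 0.342, edgeR adjusted p = 0.0290). Hoxd13, at 0.642 to 1.15 CPM in DKO and 1.80 to 2.45 CPM in the control, fell, with a log2 change of -1.26 (SE 0.293, edgeR adjusted p = 0.0245). Both were below 10 CPM in every library, and each call ended without control replicate 1 (adjusted p = 0.262 for Gata3 and 0.0943 for Hoxd13) and without control replicate 2 (0.102 and 0.244 in the same order). The call of Gata3 also ended without clone 1 replicate 1 (0.0509) or 2 (0.0573), and that of Hoxd13 without clone 1 replicate 2 (0.0531) or clone 2 replicate 1 (0.0507).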

How the data were processed

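RNA was purified on RNeasy columns, treated with DNase and made into libraries with the ScriptSeq v2 kit, per the labels' protocols. The authors aligned reads with STAR 2.5.0a to mm10 (GRCm38), per the submitters' processing notes, and deposited raw read counts per Entrez gene for the 6 libraries. The deposited table also gives a gene width in bases, another unit, used here to compute RPKM. Not given in the sources used here are the counting tool, annotation, counted strand and handling of reads that match several genes. Replicates were checked not to be 1 library split (chi-square per gene 11.8, 12.5 and 44.4 in clone 1, clone 2 and the control).

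Of 24467 IDs, 24437 matched the GRCm38.p6 reference gene table, which gave symbols and positions. Exons of 13 of the 36 members overlap those of another gene in the reference annotation. Counts were filtered with filterByExpr, scaled by TMM and tested with edgeR 4.0.16 in R 4.3.3. Genotype was the only term of the fit for DKO against control (4 residual degrees of freedom), and the clone contrasts came from 1 fit of the 3 groups (3 residual degrees of freedom). SEs are the log2 change over the square root of F, and 95% intervals use the fit's t distribution. On simulated counts for DKO against control, with 200 of 14771 genes changed, the test called 54% of the genes changed 1.5-fold and 83% of those changed 2-fold, and 7.43% of its calls were false. The simulated libraries were independent, with no difference between clones and no shift of a chromosome. These rates therefore do not cover false calls from either. DESeq2 1.42.0 and limma 3.58.1 (voom) were alternatives. For centring, the offset of each library was moved by the median log2 deviation of the tested genes of the chromosome. Tables and figures were made with Python 3.11.15, pandas 2.3.3, scipy 1.17.1 and matplotlib 3.10.9.

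The members, groups and lists were chosen with earlier results of these data known. All members are accounted for. Those called in any comparison are given by library with their change, those of chromosome 6 are named whatever their call, and up to 5 called genes are named per list of other pathway genes, of which 1 is not reported here.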

Additional observations from a re-analysis of the deposited data

Results flagged for a closer look

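Rnf2 was flagged for a library far from the others of its group. DKO clone 1 replicate 2 had 194 CPM (193.653), and the other 3 DKO libraries had 167 to 171 CPM, a gap of 0.839 of the range of the 4 libraries, above Dixon's critical value for 4 values. Of the 36 members tested in this way 1 was flagged, and chance flags about 1 in 20 groups. Without that library the log2 change of Rnf2 in DKO was -0.23 (edgeR adjusted p = 0.0747).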

How the results depend on the processing

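RLE size factors, a stricter filter and limma-voom kept all 9 calls in DKO against control, all 11 in clone 1 and all 12 in clone 2, as did no filter on low counts. DESeq2 ended 1 of these, Phc1 in clone 2 (0.179). In DKO, DESeq2 also called Pcgf1 (0.0472) and Phc1 (0.0172) higher, and with no filter Phc1 (0.0275) was called higher and Phf19 (0.0458) lower. In clone 1, Scmh1 was also called higher by limma-voom and with no filter, and Phc1 with no filter. In clone 2, no filter also called Phc2 higher and Ring1 lower. With each chromosome centred the members called higher were 2 in DKO (6 before), 3 in clone 1 (6 before) and 3 in clone 2 (7 before). Centring turned the sign of Rybp in DKO (-0.18), clone 1 (-0.067) and clone 2 (-0.29, adjusted p = 0.0145), and in clone 2 those of Aebp2 (-0.068) and Phc1 (-0.12). By the average of the clone contrasts 8 members were higher in DKO (6 before, with Pcgf1 and Phc1 added) and 5 lower (3 before, with Phf19 and Bmi1 added), and with counts summed per clone 0 were higher and 0 lower. Leaving out 1 library gave 1 to 6 higher and 0 to 4 lower in DKO, 4 to 7 higher and 2 to 5 lower in clone 1, and 5 to 7 higher and 2 to 6 lower in clone 2. Between the clones, no filter on low counts gave 2 higher (Pcgf1 and Mga) and 1 lower (Cbx7) in clone 2, and leaving out 1 library gave 0 to 1 higher. Replicate numbers did not pair the libraries (correlations of deviations 0.028, -0.0834 and 0.026). With the number as a replicate block, 4 members were higher and 3 lower in DKO (Phc2 and Rybp ended). Phc1 was then also called higher in clone 1, L3mbtl2 ended in clone 2, and 1 (Pcgf1) was higher in clone 2 against clone 1. The cause of these changes was not tested. Depth limits Cbx8, Phf19, Phf1 and Ring1 most, with 17, 40, 76 and 106 reads in their lowest libraries.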
